A study of Homo sapiens with 44 samples.

Results

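The genes described here are 34 genes of glycolysis and of the response to low oxygen. They were taken by name from a list of 34 symbols, matched to GENCODE 29, among the 58721 genes counted in each table, and all 34 passed the filter on low counts in every fit. They fall into 18 glycolysis genes (the glucose transporters SLC2A1 and SLC2A3, the enzymes from HK2 and GPI to PKM and LDHA, and the regulators PFKFB3 and PFKFB4) and 16 other hypoxia genes. RNA-seq covered A549, a human lung adenocarcinoma line, as the WT parent and as 3 isogenic derivatives, het1, het2 and homo. In the derivatives the TAZ2 domain of the coactivator p300 is truncated. By their names, het1 and het2 are heterozygous and homo is homozygous for the truncation. Each line was sampled in culture (3 libraries a line) and as xenograft tumours on day 30 (4 a line). WT and het1 tumours were also sampled after 4 weeks of DMSO, the vehicle, or of SAHA, a histone deacetylase inhibitor also called vorinostat (4 libraries a group). The labels do not say whether each line is a single clone, nor which strain, sex or age the host animals had. Nothing in them shows that each library had its own culture or animal, and p-values therefore reflect only library-to-library spread, which may be technical.

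As background, hypoxia-inducible factor (HIF) is a pair of an oxygen-regulated alpha subunit, HIF1A or EPAS1, and ARNT. With oxygen the alpha subunit is hydroxylated and degraded, and without it the pair binds the core motif ACGTG or GCGTG near its target genes. The transactivation domain of HIF-alpha is bound by p300 and CBP through their TAZ1 domain, while TAZ2 is a separate domain that binds other factors. Targets include most enzymes of glycolysis, which makes ATP without oxygen, and genes for blood vessel growth, collagen modification and mitochondrial removal.

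Libraries held 61168373 to 99593214 counts. Levels below are counts per 1000000 (CPM) on a single TMM scale over the 44 libraries, and a call is a Benjamini-Hochberg adjusted p under 0.05 in edgeR's quasi-likelihood test over all genes of a fit. Genes are said to have risen or fallen where called, and log2 fold changes are given with their standard error (SE), also after the sign ±. EP300, which encodes p300, was at 114 CPM in WT culture and 145 to 178 in the derivatives, but a count per gene does not show a truncation. The 6 epithelial markers were detected in all libraries, summing to 777 to 6762 CPM in culture and 3522 to 7212 in tumours. The lowest sums were those of homo culture. In tumours the 8 fibroblast markers summed to 109 to 523 CPM, against 7.28 to 65 in culture, and the 10 skeletal muscle markers to 1.71 to 208. The 8 myeloid markers summed to 13.5 to 75.9, the 7 endothelial to 1.1 to 9.03, the 6 adipocyte to 4.79 to 22.6 and the 5 red blood cell markers to 1.26 to 5.77. In these bulk samples, fewer cells of a type and less RNA per cell cannot be told apart, and how far host reads enter the members' counts was not tested.

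The glycolysis members together took 1.85% of the counts in WT culture (18500 ± 416 CPM, SD, n = 3). The sum was 15621 ± 91.6 in het2, 12507 ± 101 in het1 and 10108 ± 4.36 in homo culture, and no library of any line overlapped those of another. In day 30 tumours the order was different: 16310 ± 204 in het1 and 16253 ± 393 in het2 (n = 4 each), whose libraries overlapped, 13740 ± 514 in WT and 10034 ± 544 in homo. The other hypoxia members summed to 979 ± 19.3 CPM in WT culture and 1928 ± 178 in WT tumours. Their tumour sums were 2952 ± 94.1 in het1, 2745 ± 284 in het2 and 1306 ± 159.7 in homo. Per kilobase of exon, GAPDH was the most abundant member in WT culture at 1199 CPM per kb, followed by PKM at 527, ENO1 at 523 and LDHA at 502. The lowest in WT culture was LOX at 0.123 CPM per kb, followed by ANKRD37 at 0.256 and HK2 at 0.309.

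**Figure D1:**
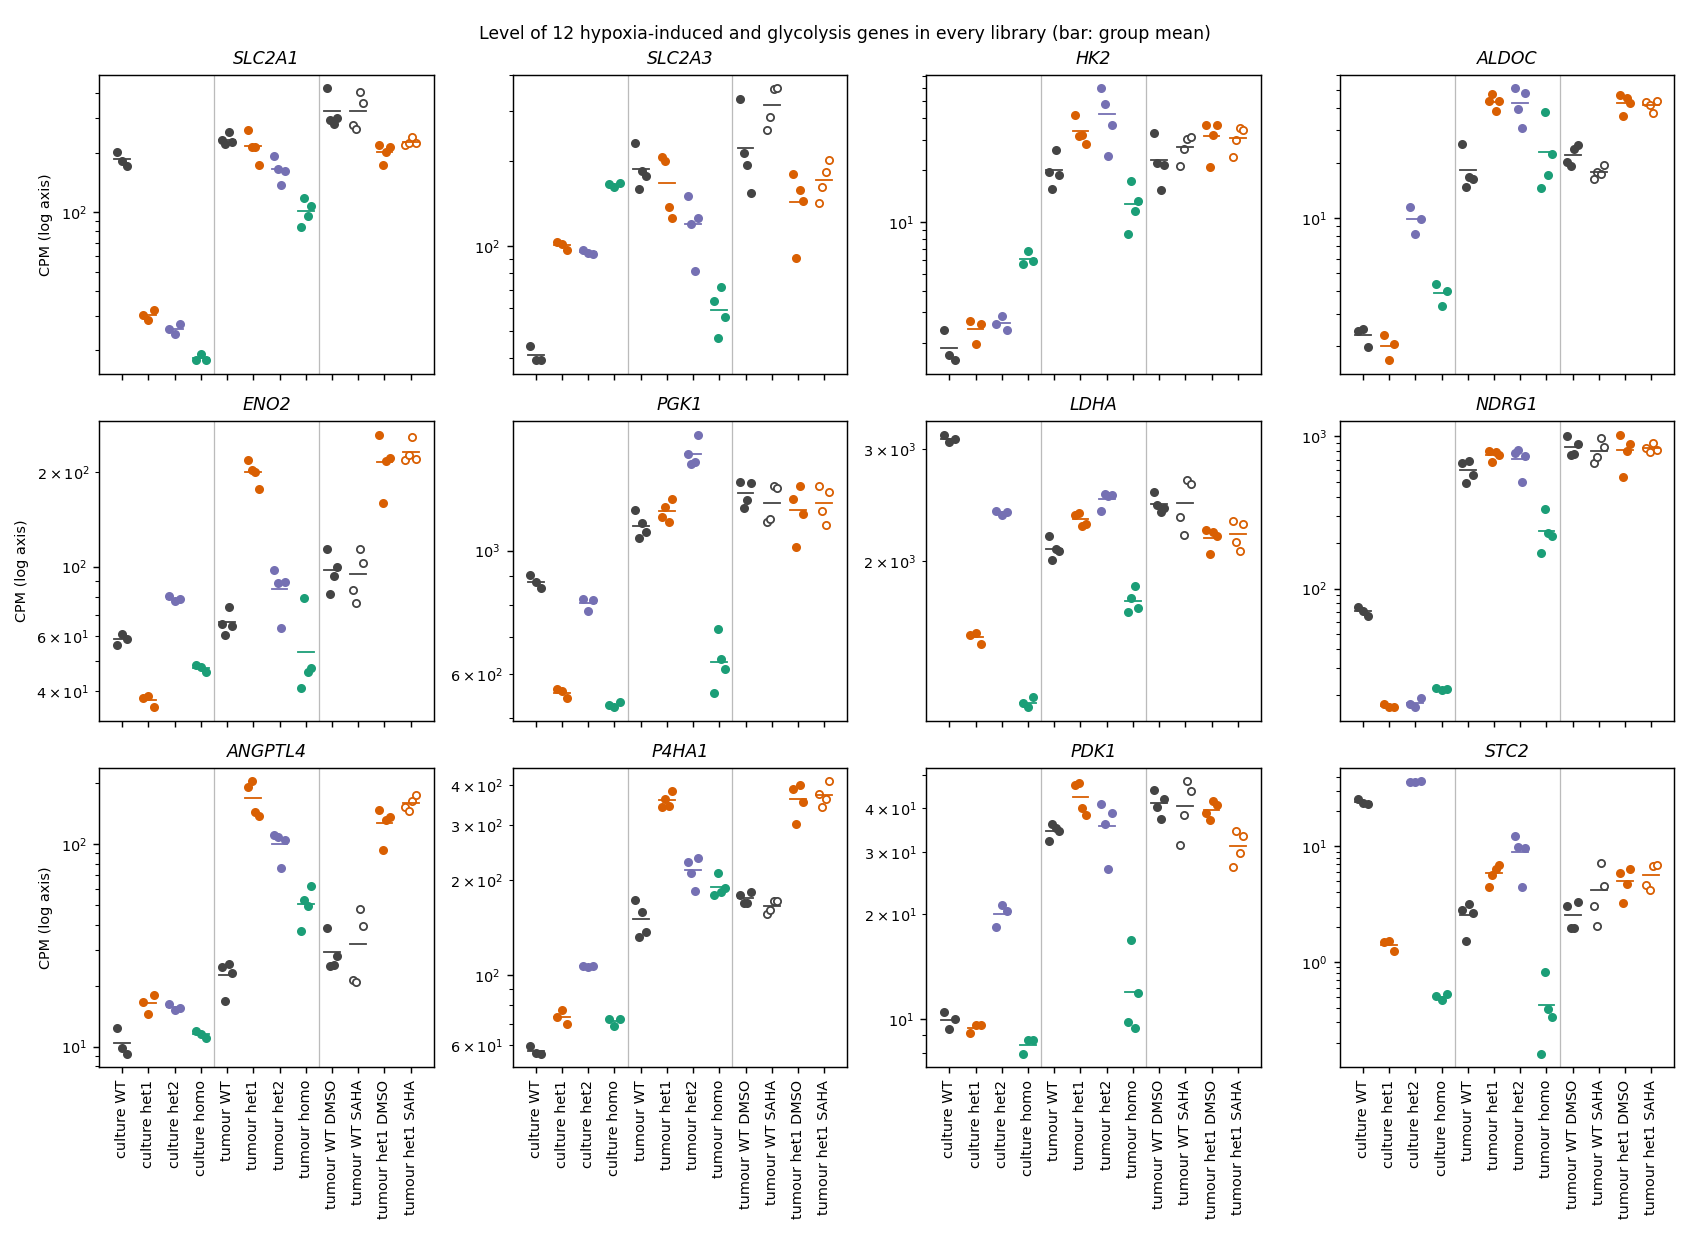
CPM of 12 members in every library (log axis), by group; points are libraries, open for SAHA, bars are group means, and colours are the lines. NDRG1 and HK2 sit higher in every tumour library than in every culture library, while STC2 is at 0.465 to 0.525 CPM in homo culture against 23.4 to 25.7 in WT culture.

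Tumours were first compared with cultures of the same line. Most of the other hypoxia members were higher in tumours of every line, while the glycolysis members split. Of the 16 other hypoxia members, 14 rose and 2 fell in WT tumours, 16 and 0 in het1, 13 and 3 in het2 and 12 and 2 in homo. Of the 18 glycolysis members, 7 rose and 8 fell in WT, 15 and 3 in het1, 9 and 3 in het2 and 7 and 6 in homo. Among all 24227 genes tested, 35.0% rose and 32.1% fell in WT, 36.8% and 28.4% in het1, 35.6% and 30.6% in het2, and 34.8% and 29.3% in homo. A rise of at least 2-fold with a call was seen for 9, 15, 6 and 7 of the 16 other hypoxia members in the same order of lines, and for 4, 7, 3 and 3 of the 18 glycolysis members. The share of all genes past that rule was 19.1% in WT, 19.5% in het1, 18.6% in het2 and 17.9% in homo. The median log2 fold change of the other hypoxia members was 1.18, 2.02, 0.78 and 0.67, and that of the glycolysis members 0.05, 0.69, 0.30 and 0.10, against 0.03 to 0.09 over all genes. The homo glycolysis median was -0.07 without homo tumour replicate 1 and 0.19 without replicate 0, and PLOD2, 1 of the 2 that fell in WT, lost its call without any of 6 single libraries (WT cultures 1, 2 or 3, WT tumours 0, 1 or 4). The growth setting, host cells and the 2 deposited tables differ together here and cannot be told apart.

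In tumours of all 4 lines 17 members rose: SLC2A1, HK2, PFKL, ALDOC and PGK1 among the glycolysis members, and PDK1, P4HA1, P4HA2, ANGPTL4, VEGFA, BNIP3, BNIP3L, NDRG1, ANKRD37, MXI1, LOX and HILPDA among the others. PGAM1 and ENO1 fell in all 4. Of all 24227 genes, 18.5% rose and 14.0% fell in all 4. Leaving out single libraries ended the calls of SLC2A1 in WT (culture replicate 3), ANKRD37 in WT (culture replicates 2 or 3), PGAM1 in het1 (1 library) and HILPDA in het2 (4 libraries). NDRG1, a stress-response gene, was at 75.1, 70.7 and 66.2 CPM in WT culture and at 671, 496, 694 and 557 in WT tumours. In het1 it went from 17.5, 16.6 and 16.7 in culture to 799.7, 682, 790.1 and 754 in tumours. The groups lie far apart in both lines, with log2 fold changes of 3.11 (SE 0.19, adjusted p = 2.04e-12) in WT and 5.49 (SE 0.22, adjusted p = 1.17e-15) in het1, and of 5.33 ± 0.21 in het2 and 3.46 ± 0.2 in homo. HK2, the inducible hexokinase that traps glucose in the cell, was at 2.36, 1.69 and 1.58 CPM in WT culture and 19.4, 15.5, 26.1 and 18.8 in WT tumours, a log2 fold change of 3.44 (SE 0.31, adjusted p = 2.11e-09). In homo, HK2 was already at 5.68, 6.77 and 5.95 in culture and reached 8.51, 17.3, 11.6 and 13.2 in tumours, so that its rise was 1.06 ± 0.27 there. ALDOC, an aldolase best known from brain, was at 2.42, 2.49 and 1.97 in WT culture and 25.2, 14.8, 16.7 and 16.3 in WT tumours. Its log2 fold change was 3.01 ± 0.31 in WT, 4.43 ± 0.32 in het1, 2.11 ± 0.26 in het2 and 2.57 ± 0.29 in homo. LOX, which crosslinks collagen, was at 0.625, 0.737 and 0.692 in WT culture and 5.23, 6.87, 6.93 and 7.05 in WT tumours, a difference of 3.25 ± 0.18 on the log2 scale. LOX is made by fibroblasts as well, and its part from host cells was not tested.

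Most enzymes of the second part of glycolysis were lower in WT tumours than in WT culture. ENO1, the main enolase, was at 2794, 2782 and 2705 CPM in WT culture and 1618, 1613, 1600.4 and 1624 in WT tumours, a log2 fold change of -0.77 (SE 0.039, adjusted p = 1.92e-17). LDHA, which turns pyruvate to lactate, was at 3164, 3079 and 3112 in WT culture and 2192, 2004, 2087 and 2076 in WT tumours, -0.57 ± 0.04. In het1 LDHA rose instead, from 1529, 1538 and 1479.5 to 2366, 2380.3, 2274 and 2288, 0.63 ± 0.041. GAPDH, PGAM1, PKM and TPI1 fell in WT tumours by 0.44, 0.54, 0.51 and 0.16 on the log2 scale. PFKFB3, which makes the activator of phosphofructokinase, fell by 1.16, from 558, 519.6 and 511 CPM to 281, 219.8, 222 and 222. STC2, a secreted glycoprotein, fell most, from 25.7, 23.6 and 23.4 in WT culture to 2.8, 1.53, 3.14 and 2.63 in WT tumours, -3.25 (SE 0.26, adjusted p = 2.13e-10). In het1 the direction was opposite, 1.49, 1.51 and 1.24 in culture and 4.48, 5.64, 6.38 and 6.87 in tumours, 2.06 ± 0.3.

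**Figure D2:**
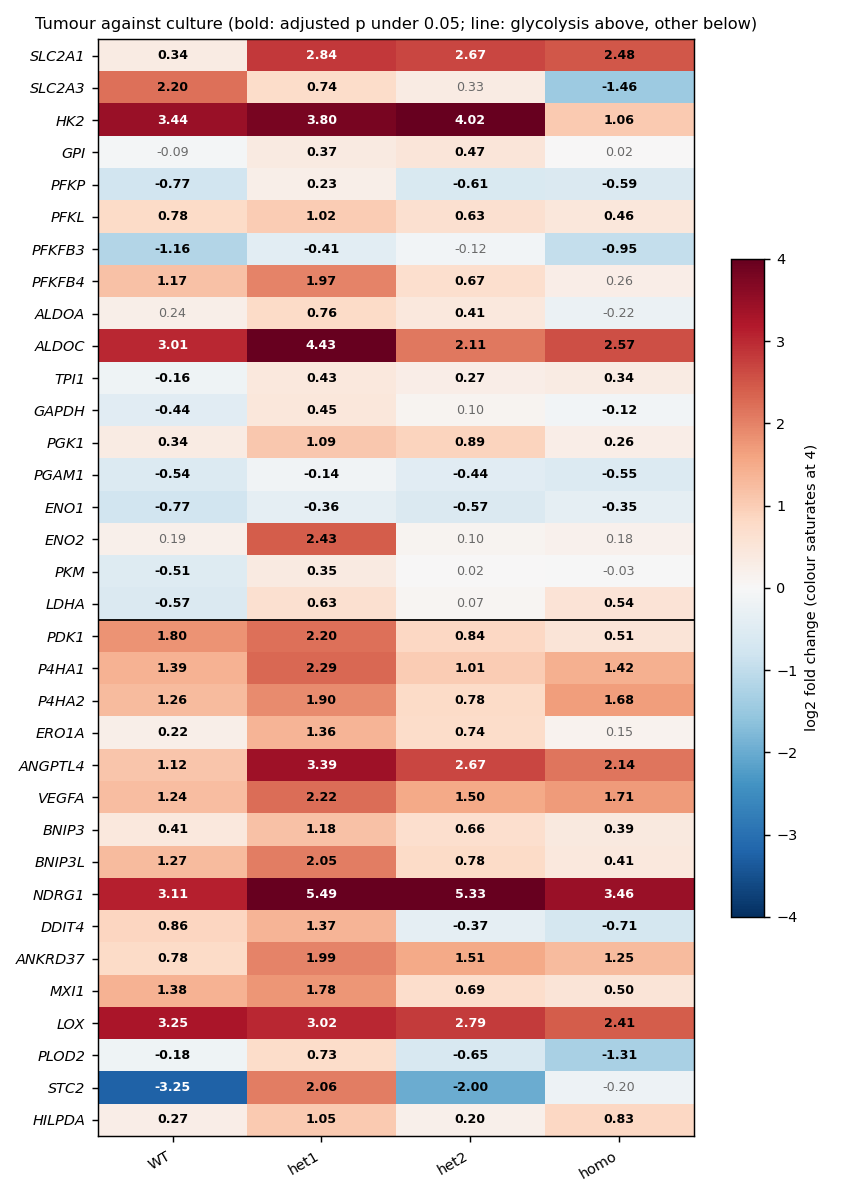
Log2 fold change of each member (rows) in tumours against cultures of the same line (columns); bold values are calls, and the line separates the 18 glycolysis members above from the 16 others below. The lower block is red in most cells, and the upper block is mixed, with the WT column blue from TPI1 to LDHA except for PGK1 and ENO2.

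The sequences before 6 of the 17 members that rose in tumours of all 4 lines are shown as examples of the core HIF motif near genes that moved together. They were chosen after the values were seen, and every stretch shown holds the motif. They are from RefSeq on GRCh38.p14, within the 250 bases before a transcript start, without bases in a GENCODE 29 exon, and read 5′ to 3′ on the gene's strand. Capitals mark ACGTG or GCGTG on either strand (CACGT or CACGC on the strand shown, with CACGTG counted once).
HK2 chr2:74834920-74835169 (plus strand): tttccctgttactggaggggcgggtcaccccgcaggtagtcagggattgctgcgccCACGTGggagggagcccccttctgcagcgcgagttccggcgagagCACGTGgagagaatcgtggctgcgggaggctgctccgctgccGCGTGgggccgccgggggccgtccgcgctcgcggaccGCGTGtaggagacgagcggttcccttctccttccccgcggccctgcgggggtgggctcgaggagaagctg
PGK1 chrX:78103998-78104173 (plus strand): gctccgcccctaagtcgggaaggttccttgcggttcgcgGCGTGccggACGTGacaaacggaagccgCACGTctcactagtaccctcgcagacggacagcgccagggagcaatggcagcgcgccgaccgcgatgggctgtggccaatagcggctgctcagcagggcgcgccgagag
BNIP3 chr10:131982014-131982173 (minus strand): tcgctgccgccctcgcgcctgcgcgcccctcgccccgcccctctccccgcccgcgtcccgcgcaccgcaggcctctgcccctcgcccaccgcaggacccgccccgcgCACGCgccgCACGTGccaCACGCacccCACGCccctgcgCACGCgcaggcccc
MXI1 chr10:110209981-110210230 (plus strand): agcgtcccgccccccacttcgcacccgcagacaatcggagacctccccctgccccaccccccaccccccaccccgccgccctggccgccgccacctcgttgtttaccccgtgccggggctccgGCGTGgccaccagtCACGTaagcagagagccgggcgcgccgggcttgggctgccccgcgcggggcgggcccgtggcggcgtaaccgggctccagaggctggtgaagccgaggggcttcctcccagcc
ANGPTL4 chr19:8363905-8364150 (plus strand): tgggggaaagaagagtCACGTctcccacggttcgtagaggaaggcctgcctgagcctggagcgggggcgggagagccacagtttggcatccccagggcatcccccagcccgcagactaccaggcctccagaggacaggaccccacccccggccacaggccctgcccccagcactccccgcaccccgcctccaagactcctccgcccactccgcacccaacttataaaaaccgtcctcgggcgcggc
LOX chr5:122078361-122078509 (minus strand): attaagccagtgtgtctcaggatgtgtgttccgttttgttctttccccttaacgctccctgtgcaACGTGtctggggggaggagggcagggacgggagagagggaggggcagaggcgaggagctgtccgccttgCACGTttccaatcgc

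The BNIP3 and LOX stretches lie before the genes' GENCODE starts, and the HK2, PGK1, MXI1 and ANGPTL4 stretches lie inside the genes' spans, in introns of longer transcripts. HK2 shows 4 motifs, PGK1 has 3 and BNIP3 has 5. MXI1 and LOX have 2 each, and ANGPTL4 has 1. MXI1 has 3 windows, and the window just before its GENCODE start (chr10:110207355-110207604) held 0 motifs. P4HA1 also rose in all 4 lines, but its stretch without exon bases held 0 motifs and is not shown. Over the full 250 bases, 34 of 43 windows of the 29 members in the table held a motif (79.1%), against 43.2% of all 35116 windows. The members' windows had a median G+C content of 70% against 58%, and both motifs are rich in G and C. SLC2A1, PGAM1, PKM and P4HA2 held none in these windows. SLC2A3, VEGFA, BNIP3L, NDRG1 and HILPDA had no entry.

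In culture, the question was how the truncated lines differ from WT. Most glycolysis enzymes were lower in het1 and homo, while the other hypoxia members were mostly higher in het2. Of the 18 glycolysis members, 3 rose and 11 fell in het1, 8 and 9 in het2 and 4 and 12 in homo. Of the 16 others, 5 rose and 9 fell in het1, 12 and 1 in het2 and 7 and 6 in homo. Among all 21704 genes, 32.0% rose and 30.8% fell in het1, 35.1% and 33.3% in het2, and 35.4% and 35.1% in homo. The glycolysis members' median log2 fold change was -0.41, -0.07 and -0.48, against 0.03, 0.02 and 0.01 over all genes. The other members' medians were -0.23, 0.67 and 0.04. The 3 comparisons share the WT libraries. The epithelial markers moved with the lines too, summing to 6430.0 to 6762 CPM in WT culture, 2447 to 2548 in het1, 1900.1 to 1977 in het2 and 777 to 795 in homo. The fibroblast markers summed to 7.28 to 8.27, 40.9 to 43, 41.8 to 43.6 and 57.4 to 65 in the same order. Most of the WT and homo sums was COL1A1, at 5.77 and 50.5 CPM on average. COL1A2 was at 0.0 and 0.00486 and DCN at 0.0 and 0.0498, and 4 of the 8 markers averaged under 1 CPM in culture. In het1 and het2 culture COL1A1 averaged 13.7 and 30.4 CPM, so most of the het1 sum came from other markers of the list. Whether the cultures held fibroblasts was not tested. The part of either marker list in these differences was not tested.

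Both glucose transporters moved, in opposite directions. SLC2A1 (GLUT1), the widespread basal transporter, was at 201, 181 and 172 CPM in WT, 30.2, 28.5 and 32.1 in het1, 25.7, 24.2 and 27.1 in het2 and 17.9, 19.2 and 17.8 in homo culture. All 9 libraries of the derivatives lay below the WT libraries, 5.8-fold, 6.81-fold and 9.49-fold lower, with log2 fold changes of -2.54 (SE 0.055, adjusted p = 1.43e-20), -2.77 ± 0.056 and -3.25 (SE 0.058, adjusted p = 2.74e-22). SLC2A3 (GLUT3), a transporter of high affinity, was at 44.2, 39.4 and 39.3 in WT and 165, 161 and 167 in homo, with 103, 101 and 96.6 in het1 and 96.7, 94 and 93.6 in het2. It was 2.57-fold, 2.44-fold and 4.27-fold higher than WT, with log2 fold changes of 1.36 ± 0.037, 1.29 ± 0.037 and 2.09 (SE 0.037, adjusted p = 1.27e-30). HK2 rose as well, by 0.45 ± 0.15, 0.56 ± 0.14 and 1.81 ± 0.14 on the log2 scale, from a low level. The HK2 call in het1 was lost without WT replicate 3 or het1 replicate 1.

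Including SLC2A1, 7 glycolysis members fell in all 3 derivatives: SLC2A1, GPI, PFKP, PFKFB3, PGAM1, PKM and LDHA. Over all 34 members 7 rose and 8 fell in all 3, against 21.0% and 21.1% of all genes. The PGAM1 call in het2 was lost without WT replicate 1 or het2 replicate 3. PFKFB3 was at 558, 519.6 and 511 CPM in WT, 361, 335 and 365 in het1, 163, 164 and 169.9 in het2 and 102, 103 and 105 in homo. Each line stood apart from the others, with log2 fold changes of -0.51 ± 0.032, -1.60 ± 0.033 and -2.27 (SE 0.034, adjusted p = 1.34e-31). LDHA fell to 1191, 1175 and 1217 in homo and 1529, 1538 and 1479.5 in het1 from 3164, 3079 and 3112 in WT, log2 fold changes of -1.30 ± 0.022 and -0.97 ± 0.022. PKM, the last ATP-making step, fell by 0.98 in homo and 0.73 in het1. In het2 the aldolase ALDOC rose to 11.5, 8.15 and 9.83 from 2.42, 2.49 and 1.97 CPM, 2.18 (SE 0.13, adjusted p = 2.34e-15), and PFKFB4, the other isoform of the regulator, rose by 1.52 ± 0.091.

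Among the other hypoxia members, NDRG1 was the member that fell in all 3 lines. It was at 75.1, 70.7 and 66.2 CPM in WT culture, 17.5, 16.6 and 16.7 in het1, 17.3, 16.6 and 19.1 in het2 and 22.3, 21.4 and 21.8 in homo. Its log2 fold changes were -1.99 (SE 0.051, adjusted p = 7.08e-26), -1.92 ± 0.05 and -1.61 ± 0.05. P4HA1, P4HA2, ANGPTL4 and MXI1 rose in all 3. The P4HA2 call in het1 was lost without het1 replicate 3, and the ANGPTL4 call in homo without WT replicates 2 or 3 or homo replicate 1. P4HA1, a catalytic subunit of the enzyme that hydroxylates collagen prolines, was at 59.5, 56.7 and 56.2 in WT and 107, 106 and 107 in het2, with log2 fold changes of 0.43 ± 0.035, 0.97 ± 0.035 and 0.40 ± 0.036. STC2 split the lines. It was at 25.7, 23.6 and 23.4 in WT, 1.49, 1.51 and 1.24 in het1, 35.7, 35.8 and 36.4 in het2 and 0.511, 0.465 and 0.525 in homo, log2 fold changes of -4.02 (SE 0.075, adjusted p = 1.45e-29), 0.65 (SE 0.052, adjusted p = 7.13e-13) and -5.51 (SE 0.092, adjusted p = 2.92e-31). PLOD2, a collagen lysyl hydroxylase, was at 311, 303 and 307 in WT and 930.2, 955 and 980.0 in het2, a rise of 1.71 ± 0.029. PDK1, which blocks entry of pyruvate into the mitochondrion, rose in het2 from 10.5, 9.39 and 10 to 18.3, 21.2 and 20.4, 1.08 ± 0.065. It did not pass the test in het1 or homo (0.00 ± 0.069 and -0.15 ± 0.07). VEGFA, the main vessel growth factor, fell in homo to 14.6, 17.8 and 15.5 from 34.2, 32 and 33.7, -0.98 ± 0.055. ANKRD37, a short HIF target, fell in het1 and homo (-0.84 ± 0.34 and -0.84 ± 0.35). The group means behind both calls are under 1 CPM, with WT replicate 1 at 1.06, and each was lost without any of 3 libraries left out singly, WT replicate 1 among them.

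In day 30 tumours the lines stood in another order. het1 and het2 tumours were mostly above WT in these genes, and homo tumours mostly below. Of the 18 glycolysis members, 9 rose and 2 fell in het1, 10 and 4 in het2 and 0 and 14 in homo. Of the 16 others, 11 rose and 0 fell in het1, 9 and 1 in het2 and 4 and 10 in homo. Among all 22533 genes, 26.8% rose and 24.8% fell in het1, 24.4% and 24.8% in het2, and 27.1% and 27.7% in homo. The medians were 0.16, 0.25 and -0.47 for the glycolysis members and 0.53, 0.33 and -0.60 for the others, against 0.02, -0.01 and 0.01 over all genes. Raised in het1 and lowered in homo were 11 members, against 2.28% of all genes: PFKP, ALDOA, TPI1, GAPDH, LDHA, VEGFA, BNIP3, BNIP3L, MXI1, PLOD2 and STC2. Of these, ALDOA in het1 and TPI1 in homo lost their call on leaving out any of 6 and 3 single libraries. These 3 comparisons share the WT tumours. Markers of other cell types moved with the lines too. The epithelial markers summed to 6904 to 7212 CPM in WT tumours, 3522 to 4151 in het1, 4905 to 5462 in het2 and 4708 to 5295 in homo. In the same order the myeloid sums were 33.4 to 46.8, 13.6 to 16.6, 26.1 to 32.7 and 17.7 to 20.9, the endothelial 2.49 to 3.46, 1.29 to 1.84, 6.5 to 9.03 and 5.07 to 5.98, and the adipocyte 17 to 22.6, 13.6 to 16, 13 to 19.9 and 4.79 to 6.85. The fibroblast sums of each derivative overlapped those of WT, at 221 to 367 in WT, 109 to 291 in het1, 109 to 360.3 in het2 and 319.9 to 489.6 in homo. All het1 sums lay below all homo sums. Single markers did not all follow their sums. Mean PECAM1 was 1.58 CPM in WT and 0.981 in homo, while CDH5 followed the endothelial sum at 0.12 and 0.992. PTPRC, a myeloid marker here, was at 0.273 in WT, 0.455 in het1 and 0.604 in homo. DCN, a fibroblast marker, was at 0.268 in WT and 2.15 in het1. Over all tumours, 6 of the 7 endothelial and 4 of the 8 myeloid markers averaged under 1 CPM. The part of these cells in the differences was not tested.

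ANGPTL4, a secreted inhibitor of lipoprotein lipase, rose most in het1 and het2 tumours. It was at 24.8, 16.8, 25.6 and 23.2 CPM in WT tumours, 192, 204, 144 and 138 in het1, 111, 108, 76.2 and 105 in het2 and 37.2, 52.9, 49.4 and 62.2 in homo. Every library of the derivatives lay above every WT library, with log2 fold changes of 2.92 (SE 0.2, adjusted p = 1.6e-08), 2.12 (SE 0.19, adjusted p = 4.71e-07) and 1.16 (SE 0.19, adjusted p = 0.000119). P4HA1 and HILPDA, a lipid droplet protein, also rose in tumours of all 3 lines, which makes 3 members, against 11.8% of all genes. P4HA1 was at 173, 132, 159 and 137 in WT and 341, 363, 344 and 385 in het1, and its log2 fold changes were 1.26 ± 0.084, 0.49 ± 0.083 and 0.35 ± 0.083. HILPDA was at 39.3, 31.9, 35.1 and 39.3 in WT and 84.1, 91.2, 78.2 and 82.2 in het1, with 1.21 ± 0.093, 0.53 ± 0.093 and 0.33 ± 0.093. P4HA2 rose in het1 and homo (0.70 ± 0.067 and 0.61 ± 0.067), with 0.12 ± 0.067 in het2. In het2, PLOD2 was at 692, 569, 623 and 548 against 267, 261, 283 and 266 in WT, a rise of 1.15 ± 0.09. STC2 was at 12.2, 9.79, 4.49 and 9.58 in het2 against 2.8, 1.53, 3.14 and 2.63 in WT, a rise of 1.81 ± 0.33. ERO1A, an oxidase of protein folding, rose by 0.91 ± 0.079 in het1 and 0.71 ± 0.078 in het2.

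In het1 tumours the glycolysis members with the greatest rise were ENO2, ALDOC and PFKFB4. ENO2, the enolase of neurons, was at 219, 204, 201 and 177 CPM in het1 tumours against 65.7, 60.5, 74.1 and 64.6 in WT, 3.04-fold higher, 1.60 (SE 0.18, adjusted p = 4.29e-06). ALDOC rose by 1.25 ± 0.27 and PFKFB4 by 1.20 ± 0.18. GAPDH was at 4416, 4322, 4512 and 4771 in het1 and 2729, 2495, 2628 and 2627 in WT, 0.79 (SE 0.056, adjusted p = 2.57e-10), and TPI1 rose by 0.51 ± 0.05. ENO1 and GPI fell by 0.13 and 0.27, and these calls were lost on leaving out any of 4 libraries (WT replicate 4, het1 replicates 1, 2 or 3) and het1 replicate 2. HK2 rose by 0.75 ± 0.27 in het1, a call lost on leaving out any of 5 libraries (WT replicates 0, 1 or 4, het1 replicates 1 or 3), and by 1.06 ± 0.27 in het2, where libraries overlapped at 24.1 to 59.6 CPM against 15.5 to 26.1. PGK1, the first ATP-making step, was at 1489, 1428, 1439 and 1613 in het2 tumours and 1179.9, 1053, 1121 and 1078 in WT, a rise of 0.41 ± 0.068. SLC2A1 in het1 tumours was at 260.0, 213, 214 and 174 against 231, 220.4, 253 and 225 in WT and did not pass the test (-0.10 ± 0.12).

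In homo tumours 14 of the 18 glycolysis members fell, and HK2, PFKFB4, ALDOC and ENO2 did not pass the test. Without homo replicate 1, HK2, PFKFB4 and ENO2 also fell and TPI1 lost its call, which gave 16 called. HK2 also fell without WT replicate 1. PFKFB3 was at 45.2, 59, 57.3 and 50.7 CPM against 281, 219.8, 222 and 222 in WT, 4.44-fold lower, -2.15 (SE 0.12, adjusted p = 1.37e-10). SLC2A3 was at 63.7, 47.2, 71.2 and 55.9 against 231, 158, 183 and 177, -1.65 (SE 0.21, adjusted p = 1.64e-05), and SLC2A1 at 84.1, 118, 96.1 and 108 against 231, 220.4, 253 and 225, -1.19 (SE 0.12, adjusted p = 4.05e-07). In homo tumours every library lay below every WT library for both transporters. PGK1 fell to 555, 722, 638 and 614, -0.81 ± 0.068, and GPI and PKM by 0.77 and 0.59. Among the others, STC2 was at 0.161, 0.822, 0.393 and 0.336 against 2.8, 1.53, 3.14 and 2.63, -2.54 (SE 0.4, adjusted p = 7.15e-05). DDIT4, an mTORC1 inhibitor, was at 18.7, 33.4, 35.2 and 38.7 against 108, 90.2, 118 and 104, -1.73 ± 0.18. PDK1 was at 9.82, 16.8, 9.46 and 11.9 against 32.2, 36.1, 35.2 and 34.4, -1.52 ± 0.16, and NDRG1 at 172, 333, 232 and 222 against 671, 496, 694 and 557, -1.33 ± 0.19. PLOD2 fell by 0.98, BNIP3L by 0.79 and BNIP3 by 0.62, the last 2 being receptors for mitochondrial removal. ANGPTL4, P4HA1, P4HA2 and HILPDA are the 4 that rose in homo tumours.

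**Figure D3:**
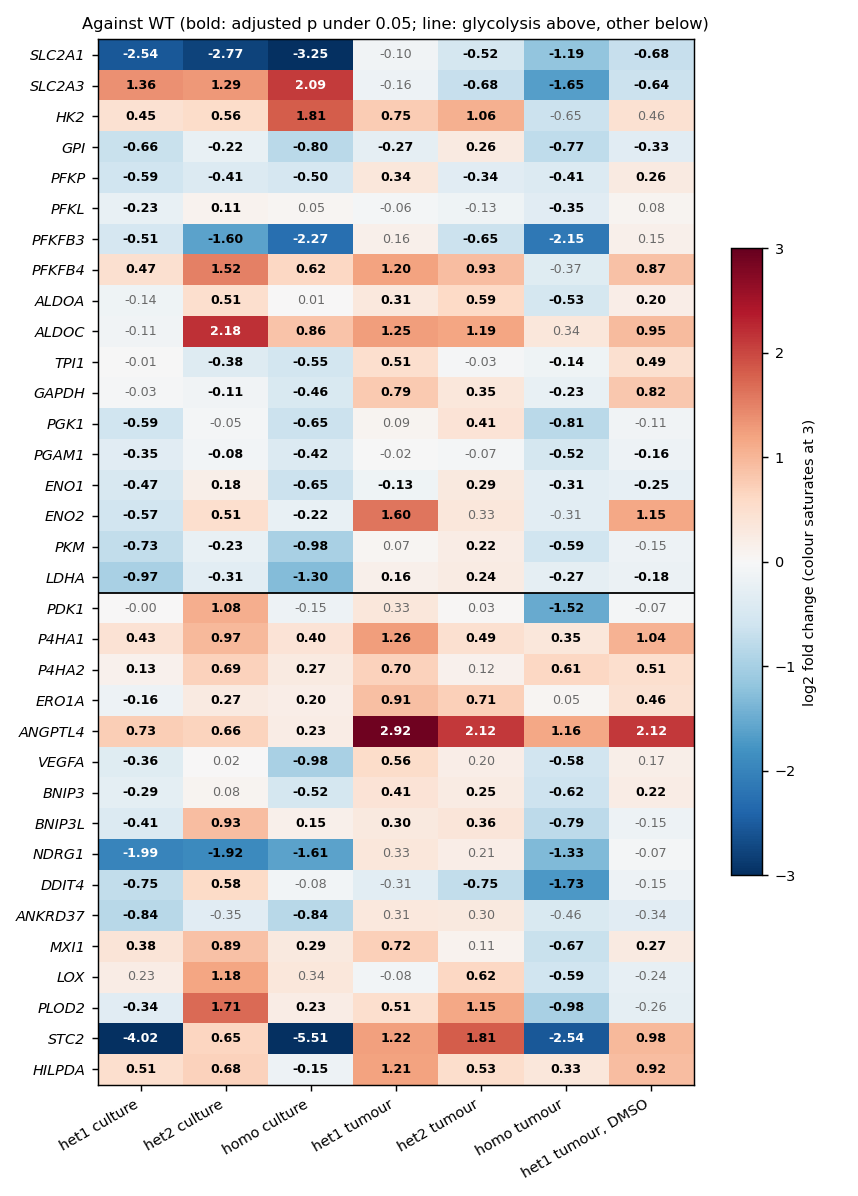
Log2 fold change of each member against WT in culture, in day 30 tumours and in DMSO tumours; bold values are calls, and the line separates glycolysis members above from the others below. SLC2A1 and NDRG1 are deep blue in all 3 culture columns and pale in the het1 and het2 tumour columns, and the homo tumour column is blue apart from ANGPTL4, P4HA1, P4HA2 and HILPDA, which are red, and the uncalled ALDOC and ERO1A.

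Whether a line's difference from WT was itself different in tumours was tested as an interaction. In het1, 16 of 18 glycolysis members and 13 of 16 others shifted upward relative to WT on going from culture to tumour, and 1 and 0 shifted downward. In het2 the upward counts were 9 and 4 and the downward counts 1 and 7. In homo they were 6 and 5 upward and 5 and 6 downward. Over all genes the shares were 24.2% up and 15.0% down in het1, 27.2% and 20.4% in het2, and 28.7% and 20.4% in homo. The shift of SLC2A1 was 2.50 (SE 0.17, adjusted p = 1.98e-11) in het1, 2.33 ± 0.17 in het2 and 2.14 ± 0.17 in homo on the log2 scale. For SLC2A3 it ran the other way, -1.46 ± 0.26, -1.87 ± 0.26 and -3.66 (SE 0.27, adjusted p = 1.37e-10). NDRG1 shifted by 2.39 ± 0.25 in het1 and 2.22 ± 0.25 in het2, with 0.36 ± 0.24 in homo, which did not pass the test. STC2 shifted by 5.31 (SE 0.4, adjusted p = 3.99e-10) in het1 and 3.05 ± 0.56 in homo, ENO2 and ANGPTL4 by 2.25 ± 0.23 and 2.26 ± 0.26 in het1, and HK2 by -2.38 ± 0.41 in homo. In het1, 9 members fell against WT in culture and rose in tumours, against 3.94% of the 20616 genes in both fits: PFKP, ENO2, LDHA, ERO1A, VEGFA, BNIP3, BNIP3L, PLOD2 and STC2. In homo, 15 members fell in both settings, against 16.3% of them.

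The members include 7 pairs of related genes, and their balance was compared as the log2 ratio of CPM per kb. SLC2A3 to SLC2A1 differed widely between cultures and little between tumours. In culture the ratio was -2.55 ± 0.04 in WT (SD, n = 3), 1.34 ± 0.12 in het1, 1.50 ± 0.088 in het2 and 2.78 ± 0.084 in homo. WT cultures held 5.87 times more SLC2A1 than SLC2A3 per kb, and homo cultures 6.88 times more SLC2A3 than SLC2A1. In day 30 tumours it was -0.70 ± 0.22, -0.77 ± 0.23, -0.87 ± 0.18 and -1.16 ± 0.44 in the same order (n = 4 each), with overlapping libraries. PFKFB4 to PFKFB3 was -6.90 ± 0.062 in WT culture and -4.00 ± 0.091 in homo culture. In tumours it was -4.57 ± 0.23 in WT and -2.80 ± 0.19 in homo. ALDOC to ALDOA was -3.97 ± 0.1 in WT culture, -1.24 ± 0.25 in WT tumours and -0.27 ± 0.08 in het1 tumours. ALDOA shares 42.3% of its exon bases with another gene on its strand. Its counts may hold only part of its reads, so this ratio may be too high. ENO2 to ENO1 was -4.31 ± 0.13 in WT tumours, -2.57 ± 0.17 in het1, -4.27 ± 0.29 in het2 and -4.35 ± 0.44 in homo, so het1 tumours stood apart from the other lines. PFKP, the platelet type of phosphofructokinase, was above PFKL, the liver type, in every library, at 4.06 ± 0.048 in WT culture and 2.52 ± 0.096 in WT tumours. P4HA1 was above P4HA2 in every library, at -2.23 ± 0.08 for P4HA2 to P4HA1 in WT tumours and -2.79 ± 0.035 in het1. BNIP3L to BNIP3 was 0.93 ± 0.011 in WT culture and 1.80 ± 0.13 in WT tumours, and it was 0.82 ± 0.1 in het1 culture against 1.78 ± 0.069 in het2 culture. These ratios have no test.

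**Figure D4:**
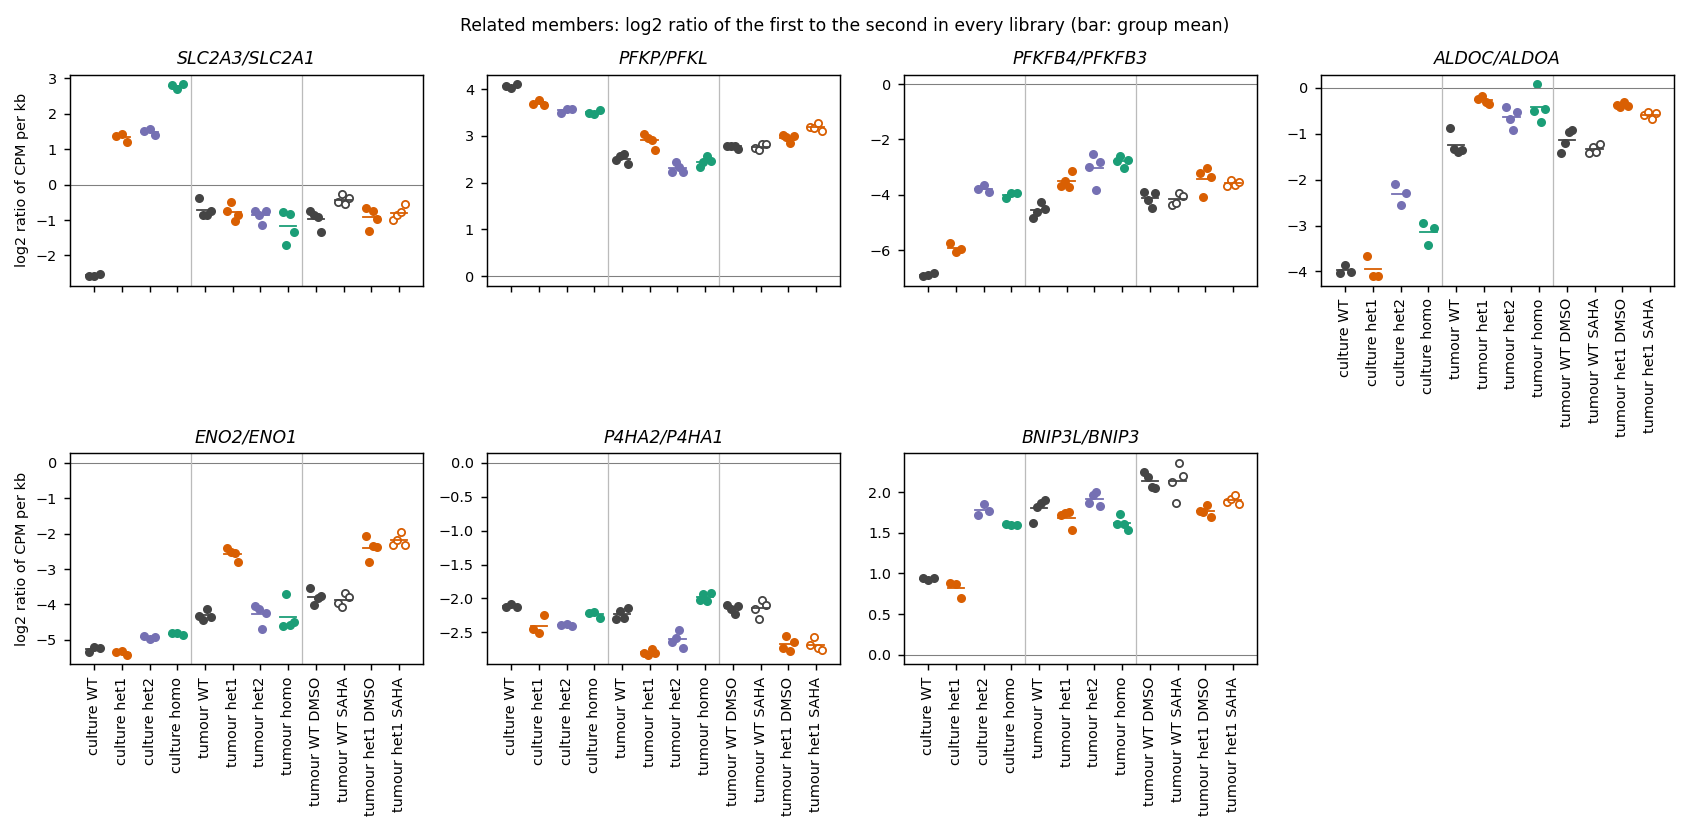
Log2 ratio of CPM per kb for the 7 pairs of related members in every library, by group; points are libraries, open for SAHA, and bars are group means. For SLC2A3/SLC2A1 the culture groups spread from -2.55 to 2.78 on average, while all tumour groups average below 0.

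The het1 difference was measured again in separate tumours, those given DMSO. Of the 18 glycolysis members 7 rose and 6 fell in het1 against WT, and of the 16 others 8 rose and 0 fell. Over all 22586 genes 27.3% rose and 26.8% fell. All 15 members that rose under DMSO were among the 20 that rose on day 30, of which they are 75%. Of the 6 members that fell under DMSO, 2 (GPI and ENO1) fell on day 30, which is 33.3%, and no other member fell on day 30. Over all genes in both fits, shared calls were 78.2% of those raised under DMSO and 78.7% of those raised on day 30, and 69.8% and 75.5% of those lowered. Across the 34 genes, which are not independent, the 2 sets of fold changes had a Pearson r of 0.94, and across all 21918 genes 0.9. LDHA was called in opposite directions, 0.16 ± 0.05 on day 30 and -0.18 ± 0.065 under DMSO. The latter call was lost without WT DMSO replicate 2 or het1 DMSO replicate 3.

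ANGPTL4 was at 38.7, 25, 25.4 and 28 CPM in WT DMSO tumours and 147, 93.1, 132 and 136 in het1 DMSO tumours, 2.12 (SE 0.27, adjusted p = 1.58e-05). ENO2 was at 114, 81.9, 93.2 and 99.4 and 264, 159.7, 218 and 222, 1.15 (SE 0.15, adjusted p = 1.88e-05). P4HA1 was at 179.7, 169, 169 and 183 and 389.7, 301, 402 and 354, 1.04 (SE 0.078, adjusted p = 9.8e-10). In these 3 genes all het1 libraries were above all WT libraries. GAPDH rose by 0.82 ± 0.059, HILPDA by 0.92 ± 0.13, ALDOC by 0.95 ± 0.09 and PFKFB4 by 0.87 ± 0.17. STC2 rose by 0.98 ± 0.35, with overlapping libraries. SLC2A1 was lower in het1 here, at 218, 174, 200.2 and 214 against 423, 292, 279 and 298, -0.68 (SE 0.15, adjusted p = 0.00114), where the day 30 sets overlapped. SLC2A3 fell by 0.64, and that call was lost on leaving out any of 5 of the 8 libraries. These 5 were WT DMSO replicates 2 and 3 and het1 DMSO replicates 3, 4 and 5. The STC2 call was lost without any of 4 libraries. The fibroblast markers summed to 119 to 139 CPM in het1 and 248 to 362 in WT DMSO tumours. Single markers of that list did not all agree. COL1A1 (means of 60.1 and 193) and COL1A2 (16.0 and 52.8) followed the sum, while DCN was higher in het1 (3.51 against 0.243). The myeloid sums were 13.5 to 18.2 and 42.3 to 75.9, the endothelial 1.1 to 1.62 and 2.87 to 3.72, the epithelial 3706 to 4457 and 5156 to 7081 and the red blood cell 2.61 to 4.93 and 1.29 to 2.39, and their part was not tested. The other hypoxia members called numbered 8 and ranged from 4 to 9 on leaving out 1 library, with 4 without het1 DMSO replicate 2 and 5 without het1 DMSO replicate 5 or WT DMSO replicates 3 or 7. With no filter on low counts there were 5.

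**Figure D5:**
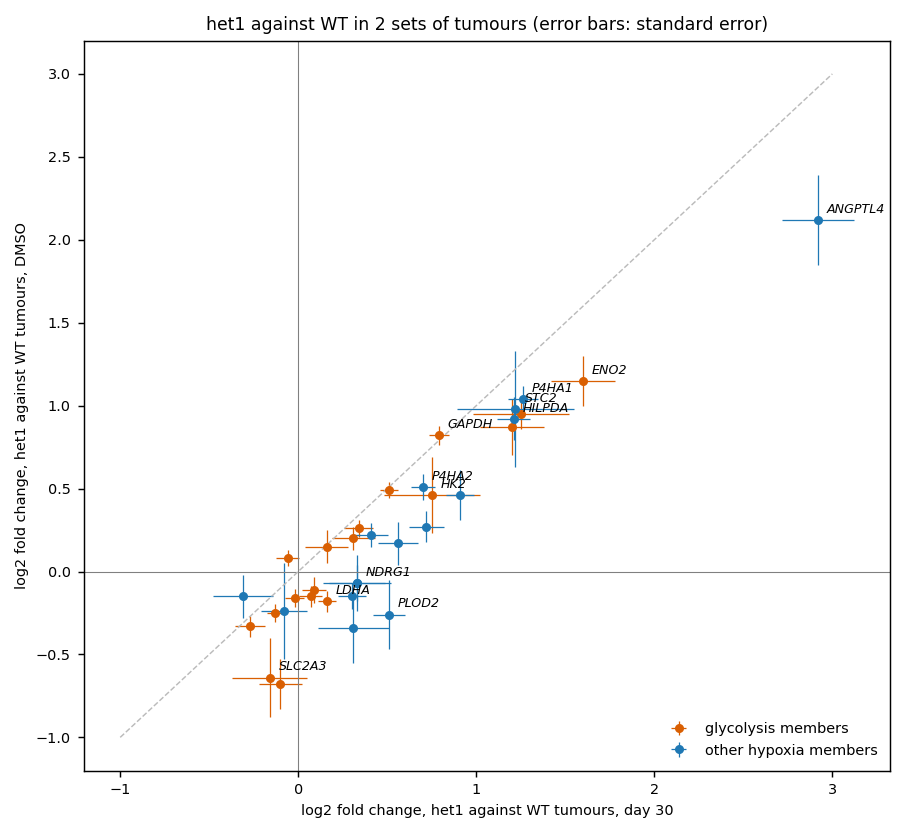
Log2 fold change of each member in het1 against WT tumours on day 30 (x axis) and under DMSO (y axis), with standard errors and the line of equality; orange are glycolysis members and blue the others. ANGPTL4, ENO2 and P4HA1 lie far up in both sets, and most points fall below the line of equality.

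Few members differed between SAHA and DMSO. In WT tumours 0 members rose and 0 fell in either class, where 0.0% of all genes rose and 0.0% fell by edgeR. An unadjusted p under 0.05 was found for 1911 of the 22586 genes, and DESeq2 called 115 raised and 36 lowered. In het1 tumours 3 glycolysis members (GPI, PFKL and GAPDH) and 3 others (PDK1, BNIP3 and MXI1) fell and 0 rose, against 7.68% of all genes raised and 9.15% lowered. GAPDH was at 4392, 3939.9, 4226 and 4645 CPM under DMSO and 3763, 3627, 3476 and 3915 under SAHA in het1, -0.21 (SE 0.058, adjusted p = 0.0163). PDK1 was at 38.8, 37, 41.9 and 40.8 and 27.2, 34.4, 29.9 and 33.3, -0.34 (SE 0.11, adjusted p = 0.0389). In both genes every SAHA library lay below every DMSO library. PFKL fell by 0.21 ± 0.047, GPI by 0.22 ± 0.062, BNIP3 by 0.22 ± 0.073 and MXI1 by 0.34 ± 0.095 on the log2 scale. The calls of GPI, GAPDH, PDK1, BNIP3 and MXI1 were each lost without any of 2 to 6 single libraries. Calls among the other hypoxia members numbered 0 without het1 DMSO replicates 2 or 5 or het1 SAHA replicates 1 or 3, and 1 without het1 DMSO replicate 4 or het1 SAHA replicate 2, or with no filter. The fibroblast markers summed to 119 to 139 CPM under DMSO and 168 to 245 under SAHA in het1, and their part was not tested. The SAHA effect differed between the lines for 1 member, PFKL, with a difference of -0.25 (SE 0.066, adjusted p = 0.04), against 2.01% of all genes shifted up and 2.71% down, and that call was lost on leaving out any of 12 of the 16 libraries and with no filter.

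Within groups the members tended to move together from tumour to tumour. Over deviations from the group means in the 32 tumour libraries, the median Pearson r between members was 0.42 among glycolysis members, 0.53 among the others and 0.46 between the classes. These pairs share libraries and depth and are given as a description. Neither the correlations nor the library ranks below were set against all genes, so whether they are particular to these members was not tested. The closest pairs were ENO2 with BNIP3L (r = 0.92), ENO2 with NDRG1 (0.91) and BNIP3L or PFKFB4 with NDRG1 (0.89), and the member nearest to all others was NDRG1, with a median r of 0.67. TPI1, ANKRD37, ENO1, PFKFB3 and LOX were least alike, at 0.16 to 0.2. In the 12 cultures the medians were 0.39 and 0.09 within the classes. Single tumours stood low or high in many members at once. Replicate 0 of the homo tumours was lowest of its group in 30 of 34 members, het1 DMSO replicate 3 in 30, WT replicate 1 in 27 and het2 replicate 3 in 24. Homo replicate 1 was highest in 24, WT SAHA replicate 6 in 24 and WT DMSO replicate 2 in 23.

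Other genes of the same pathways were counted next. Of 28 other hypoxia-induced genes, 26 rose and 1 fell in WT tumours against culture. EFNA1, a ligand of Eph receptors, and CCNG2, an atypical cyclin, rose by 4.61 ± 0.13 and 2.06 ± 0.068 on the log2 scale. In homo against WT tumours 3 rose and 18 fell, with CA12, a membrane carbonic anhydrase, at 58.3 CPM against 1404 (-4.59 ± 0.14) and AK4, a mitochondrial adenylate kinase, at 47.6 against 181 (-1.93 ± 0.12). In het1 tumours 10 rose and 7 fell on day 30, and in het2 12 and 10. The shares of all genes were 35.0% raised and 32.1% lowered for WT tumours against culture. Against WT tumours on day 30 they were 26.8% and 24.8% in het1, 24.4% and 24.8% in het2 and 27.1% and 27.7% in homo. Under DMSO, 5 of the 28 rose and 11 fell in het1 against WT, where 27.3% of all genes rose and 26.8% fell. Of the 22 other glucose metabolism genes 20 could be tested in day 30 tumours, and 9 rose and 5 fell in het1, 10 and 3 in het2 and 11 and 3 in homo. LDHB, the other lactate dehydrogenase subunit, was at 229.8 CPM in het1 tumours and 75.3 in WT (1.62 ± 0.057). PDK4, a relative of PDK1, rose in tumours of all 3 lines, from 257 in WT to 1038 in het1, 843 in het2 and 1015 in homo, with log2 fold changes of 2.02 ± 0.074, 1.70 ± 0.073 and 1.99 ± 0.074. HKDC1, a hexokinase, fell in all 3, by 1.50, 1.45 and 2.26.

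The levels of the HIF alpha subunits were as follows. EPAS1 was at 548 ± 10.5 CPM in WT culture (SD, n = 3), 76.6 in het1, 163 in het2 and 51.5 in homo, and in tumours at 241, 385, 285 and 475. HIF1A was at 704, 303, 999 and 418 in culture. In tumours HIF1A was at 329.6 CPM in WT, 227 in het1, 509 in het2 and 332 in homo, whose difference from WT did not pass the test. HIF-alpha protein was not measured.

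Some members share exon bases with other genes or have pseudogenes, and the strand setting of the counting is not given. ALDOA shares 42.3% of its exon bases with AC093512.2, a gene on its own strand, so its level of 48.1 ± 5.23 CPM in WT culture (SD, n = 3) may hold only part of its reads. ANKRD37 and DDIT4 share 35.2% and 41.2% with genes on the opposite strand. BNIP3 has 39 named pseudogenes, whose counts came to 37.2% of its own, and the pseudogenes of TPI1 came to 8.36%. HILPDA shares 13.2% of its exon bases with its own strand's genes, and GAPDH and ALDOC share 14.2% and 10.1% with the opposite strand's. Differences in all these genes carry that uncertainty, as do the ratios of ALDOC to ALDOA and of BNIP3L to BNIP3. On GRCh38, SLC2A1 lies at chr1:42925375-42959176 (minus strand), SLC2A3 at chr12:7919230-7936275 (minus), HK2 at chr2:74833981-74893359 (plus), ENO2 at chr12:6913745-6923698 (plus), PFKFB3 at chr10:6144934-6254644 (plus), STC2 at chr5:173314713-173329503 (minus) and ANGPTL4 at chr19:8363289-8374373 (plus).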

How the data were processed

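PolyA RNA from 12 cultures, 16 day 30 tumours and 16 treated tumours was made into libraries with the KAPA Stranded mRNA-Seq kit, per the labels' protocols. The authors deposited 3 tables of raw read counts per Ensembl gene, with no normalization. bcl2fastq, HISAT2, HTSeq and hg38 are named in the submitters' processing notes. The sources used here give neither the strand setting nor whether mouse reads were removed. Gene symbols and exon lengths were taken from GENCODE 29. Counts were analysed with edgeR 4.0.16 in R 4.3.3 (TMM scaling, filterByExpr by group, robust quasi-likelihood test, Benjamini-Hochberg adjustment over all genes of a fit). Cultures, day 30 tumours and treated tumours were fitted separately, and a joint fit of cultures with day 30 tumours gave the tumour against culture comparisons and the interactions. SE is the absolute log2 fold change over the square root of F. The script was tested on simulated counts. No 2 libraries of a group held identical values. Alternatives were leaving out each library, testing with DESeq2 1.42.0, its size factors within edgeR, and a block for replicate number. Others were dropping the filter, or keeping genes above a mean of 1 CPM. For the culture comparisons with WT alone, fits of only the groups compared were also run. Among called members, up to 6 with the greatest rise and 6 with the greatest fall per comparison were eligible for values, with library values for members without overlap or with a paralog in the list. From the pathway lists, up to 4 called genes with the smallest p were eligible, plus EP300. The members and lists were chosen with earlier results of these data known.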

Additional observations from a re-analysis of the deposited data

Results flagged for a closer look

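Single libraries stood apart from the other 3 of their group in 10 of the 272 groups of 4 examined, by Dixon's test at its 95% critical value. Chance gives about 1 in 20 groups. Highest of their group were SLC2A1 at 423 CPM and VEGFA at 135 CPM, both in WT DMSO replicate 2, PFKFB3 at 281 CPM in WT day 30 replicate 0, ENO1 at 1424 CPM in het1 DMSO replicate 5 and PKM at 3413 CPM in het1 replicate 2. Lowest of their group were PGAM1 at 199 CPM and ANKRD37 at 0.626 CPM in homo replicate 0, LOX at 5.23 CPM in WT day 30 replicate 0, LDHA at 2395 CPM in het2 replicate 0 and ANGPTL4 at 76.2 CPM in het2 replicate 3.

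A line's difference from WT was not the same in tumours as in culture for 17 glycolysis and 13 other hypoxia members in het1, 10 and 11 in het2, and 11 and 11 in homo, by the interaction in edgeR's test. Differences past 2 on the log2 scale were found in het1 for SLC2A1 (2.50), ENO2 (2.25), ANGPTL4 (2.26), NDRG1 (2.39) and STC2 (5.31). In het2 they were SLC2A1 (2.33) and NDRG1 (2.22). In homo they were SLC2A1 (2.14), SLC2A3 (-3.66), HK2 (-2.38) and STC2 (3.05). The SAHA effect differed between het1 and WT tumours for 1 glycolysis member, PFKL (-0.25).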

How the results depend on the processing

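No member in any comparison changed direction with a call under any alternative run. Of 578 values of members in comparisons, 98.6% kept their side of the threshold with DESeq2's size factors in edgeR, 98.3% with DESeq2, 96.4% with no filter and 96.2% with the replicate number as a block, as did 98.2% of 565 with the filter at a mean of 1 CPM. Fits of only the groups compared, run for the 3 culture comparisons alone, kept 98.0% of 102. Without the filter, the called other hypoxia members numbered 5 in place of 8 for het1 against WT under DMSO and 1 in place of 3 for SAHA in het1, and the 1 glycolysis member of the SAHA difference was lost (0). The replicate block gave 4 for het1 under DMSO, 0 and 0 (glycolysis and other) for SAHA in het1 and 0 for the SAHA difference. The cause was not tested. Leaving out each library in turn, the called glycolysis and other hypoxia members numbered 13 to 15 and 13 to 14 in het1 cultures, 16 to 17 and 13 to 14 in het2 and 16 and 11 to 14 in homo. In day 30 tumours they numbered 8 to 11 and 11 in het1, 13 to 14 and 9 to 10 in het2 and 13 to 16 and 14 in homo, and under DMSO 11 to 13 and 4 to 9. For SAHA they were 0 and 0 in WT, 2 to 3 and 0 to 3 in het1 and 0 to 1 and 0 for the difference. Tumours against cultures gave 14 to 16 and 14 to 16 in WT, 17 to 18 and 16 in het1, 12 to 14 and 14 to 16 in het2 and 12 to 14 and 14 to 15 in homo, and the interactions 15 to 17 and 12 to 13, 10 to 11 and 11 to 13 and 10 to 12 and 11. Same-numbered libraries of different groups had correlations of residuals from -0.25 to 0.23. From so few libraries these values cannot show whether a number marks a shared batch, and the main fits did not pair by number. Depth was at least 61168373 counts a library, and the members with a group mean under 1 CPM were ANKRD37, LOX and STC2.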
